A study of Mus musculus with 22 samples.

Results

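Brown adipose tissue (BAT) of CPEB2-KO mice was compared with that of CPEB2-WT mice, all of which had received a virus carrying GFP (green fluorescent protein). The libraries were taken by their group labels. The comparison used 6 of the 22 libraries of the series, 3 of KO + AAV-GFP (mice 57, 64 and 69) and 3 of WT + AAV-GFP (mice 56, 65 and 89), and covered every gene that passed a filter on low counts, 18899 of the 55487 in the deposited table. The other libraries came from WT and KO mice given a virus for PRDM16, a transcriptional regulator of brown fat (3 each), and from untreated WT and KO mice of 21 to 25 weeks (5 each).

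Each library was made from 1 mouse on a C57BL/6 background, and the labels call every mouse male. The 12 libraries of the virus experiment held 153.8 to 193.9 CPM (scaled counts, defined below) of 4 Y-linked genes together and at most 0.268 CPM of *Xist*, the RNA of the inactive X chromosome. Of the 10 untreated libraries, 6 went against the label, with 0.206 to 1.17 CPM of the Y-linked genes and 104 to 305 CPM of *Xist*, and they were 2 of the 5 WT and 4 of the 5 KO libraries. The untreated mice enter only the last comparison, where values are given with and without these libraries. KO mice lacked CPEB2 in the whole body from birth and, like the WT mice, came from crosses of heterozygous parents, so a difference in BAT could start in another tissue. At 16 weeks of age every mouse of both groups had 20000000000 vector genomes of recombinant adeno-associated virus (AAV) put into the interscapular fat in 30 µl, 10 µl at each of 3 sites, and BAT was collected 9 weeks later, at 25 weeks. No mouse without virus stood in the same fit, so what the injection and GFP did to both genotypes was not tested. The labels give no litter, cage or extraction day for a mouse.

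CPEB2 is an RNA-binding protein that attaches to cytoplasmic polyadenylation elements of mRNAs and alters how well these are translated. Brown adipocytes are packed with mitochondria whose respiratory chain burns fatty acids, and the uncoupling protein UCP1 lets that energy leave as heat. Most subunits of the respiratory complexes are encoded in the nucleus, made on cytosolic ribosomes and imported, and a few are encoded by the mitochondrial genome and made on mitochondrial ribosomes.

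The libraries held 74420956 to 143005309 counts, of which 29.6% to 33.6% fell on genes of the mitochondrial genome. Values are CPM, counts scaled to 1000000 of a library's total after this total is multiplied by its TMM factor. A level is thus relative to the scaled total. The factor ran from 0.902 in KO mouse 57 to 1.21 in KO mouse 69. Fold changes are log2 differences of KO minus WT with their standard error (SE). The genes were tested by edgeR's quasi-likelihood test on the 12 libraries of the virus experiment, with Benjamini-Hochberg adjustment over all 18899 genes, and a gene is said to have risen or fallen only at an adjusted p under 0.05. Brown fat genes were abundant in all 6 libraries (*Ucp1* at 1184 to 2658 CPM and *Cidea* at 1078 to 1575 CPM). Single libraries stood apart in other ways. KO mouse 69 lay at 30.8 on the first principal component, which carried 43.0% of the variance, against -12.6 to 1.56 for the other 5, and KO mouse 57 held skeletal muscle transcripts. In bulk tissue, fewer cells of a type and less RNA per cell cannot be told apart.

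*Cpeb2*, the targeted gene, fell in the KO libraries (ENSMUSG00000039782, GRCm38 chromosome 5, 43233170 to 43289724, plus strand). It was at 12.7, 14.0 and 10.5 CPM in WT mice 56, 65 and 89 and at 5.42, 5.51 and 5.55 CPM in KO mice 57, 64 and 69. The 3 KO libraries were close to each other and all lay below the lowest WT library. The log2 fold change was -1.18 ± 0.14 (SE; 3 against 3; adjusted p = 0.0200 by edgeR). A count over the whole gene does not show which exons the remaining reads cover, so this value checks the labels and not the loss of protein.

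In all, 10 genes passed the adjusted threshold, 0.0529% of those tested. Among them 1 rose (0.00529%) and 9 fell (0.0476%). Of the 9 that fell, 7 besides *Cpeb2* are nuclear genes for small proteins, 6 of them proteins of mitochondria, and the other is a provisional pseudogene.

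The call of 10 genes rests on all 6 libraries. It became 0 genes without KO mouse 57 or without KO mouse 64, 6 without KO mouse 69, 3 without WT mouse 56, and 2 without WT mouse 65 or WT mouse 89, and 0 when only the 6 libraries were fitted. Some of these calls were other genes. Of the 10, 3 stayed called without KO mouse 69, 2 without WT mouse 56, 1 without WT mouse 65 and 2 without WT mouse 89. Among the small mitochondrial genes only *Mrps24* stayed called without KO mouse 69, and only *Mrps36* without WT mouse 56. In each of these fits all 10 genes kept their direction. Without an adjustment for the number of genes, 941 were higher (4.98%) and 793 lower (4.2%) at p under 0.05. The 3 KO libraries lay wholly above the 3 WT libraries for 1231 genes (6.51%) and wholly below for 1300 (6.88%). The counts of members in each gene list below are read against these shares where all libraries were used. Without a single library, the numbers higher and lower over all genes also changed, with the filter applied anew. They were 1369 and 911 without KO mouse 57, 946 and 673 without KO mouse 64, and 617 and 860 without KO mouse 69. Without WT mice 56, 65 and 89 in turn they were 795 and 812, 887 and 704, and 742 and 554. Counts of list members without a library are read against these.

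**Figure D1:**
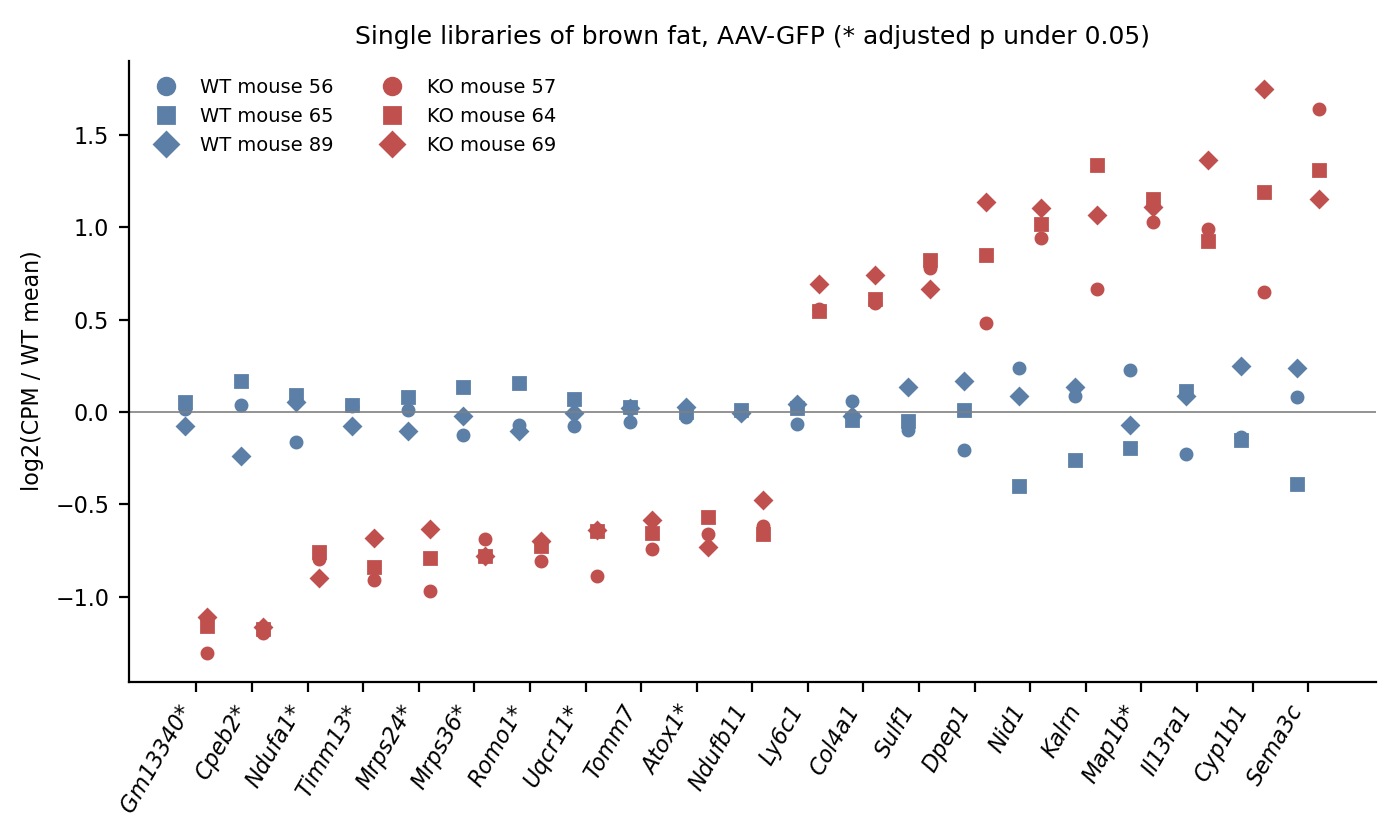
Level of 21 genes in each of the 6 libraries, as log2 of the CPM over the mean of the 3 WT libraries (vertical axis). The genes are the 10 at an adjusted p under 0.05 (starred) and those with the smallest p in each direction whose groups did not overlap, ordered by fold change. The red KO points lie apart from the blue WT points for every gene shown, which the choice of genes sets for all but *Gm13340*.

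Promoters of some of the small genes that fell and of a pair of collagen genes are shown here. The results turn on short genes, most of them mitochondrial, and on the paired chains of type IV collagen. Each window is the stretch of 300 bases around the gene's start, written 5′ to 3′ on the gene's strand, from RefSeq (GRCm38.p6). In the first 4, capitals mark the core letters of the site of NRF1 (GCATGCGC) or of ETS factors (CCGGAAG), searched on both strands, and neither motif lies within the other. Both factors are known at promoters of mitochondrial genes. They are the windows with a match among the 7 genes that fell and had a window. *Mrps24*, *Mrps36* and *Ndufa1* had neither, and *Cpeb2* and *Gm13340* had no window.
Uqcr11, chr10:80406772-80407071, minus strand: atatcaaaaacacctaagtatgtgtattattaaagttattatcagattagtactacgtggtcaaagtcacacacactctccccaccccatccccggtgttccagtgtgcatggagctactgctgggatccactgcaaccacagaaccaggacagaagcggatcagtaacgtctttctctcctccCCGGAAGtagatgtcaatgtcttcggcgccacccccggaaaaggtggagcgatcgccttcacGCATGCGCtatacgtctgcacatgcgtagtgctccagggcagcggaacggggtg
Timm13, chr10:80900920-80901219, minus strand: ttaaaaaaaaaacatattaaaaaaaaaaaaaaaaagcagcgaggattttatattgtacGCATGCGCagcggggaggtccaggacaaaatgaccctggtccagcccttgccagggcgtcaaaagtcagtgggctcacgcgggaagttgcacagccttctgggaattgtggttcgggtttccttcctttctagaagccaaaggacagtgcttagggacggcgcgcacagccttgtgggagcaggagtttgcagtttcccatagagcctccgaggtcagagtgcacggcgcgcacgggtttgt
Romo1, chr2:156143983-156144282, plus strand: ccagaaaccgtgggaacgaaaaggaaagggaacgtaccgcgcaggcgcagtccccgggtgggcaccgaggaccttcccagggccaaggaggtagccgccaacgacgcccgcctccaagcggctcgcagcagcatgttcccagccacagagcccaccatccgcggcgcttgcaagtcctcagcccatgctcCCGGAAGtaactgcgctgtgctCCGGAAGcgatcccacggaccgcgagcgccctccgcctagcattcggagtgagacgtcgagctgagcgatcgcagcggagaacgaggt
Atox1, chr11:55461159-55461458, minus strand: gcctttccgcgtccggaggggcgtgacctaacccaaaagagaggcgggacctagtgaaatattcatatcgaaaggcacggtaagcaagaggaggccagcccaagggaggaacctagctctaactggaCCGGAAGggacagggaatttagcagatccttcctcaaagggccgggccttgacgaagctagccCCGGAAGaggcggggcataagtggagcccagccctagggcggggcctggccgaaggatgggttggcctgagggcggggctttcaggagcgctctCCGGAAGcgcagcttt
In the next pair, capitals mark the 78 bases that both windows hold, read on opposite strands.
Col4a1, chr8:11312777-11313076, minus strand: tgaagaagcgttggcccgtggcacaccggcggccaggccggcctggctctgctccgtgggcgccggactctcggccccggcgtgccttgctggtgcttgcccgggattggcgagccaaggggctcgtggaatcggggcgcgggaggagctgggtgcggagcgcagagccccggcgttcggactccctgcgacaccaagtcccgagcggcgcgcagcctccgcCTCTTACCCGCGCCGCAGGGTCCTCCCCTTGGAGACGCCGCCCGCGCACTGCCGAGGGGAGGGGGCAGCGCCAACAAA
Col4a2, chr8:11312555-11312854, plus strand: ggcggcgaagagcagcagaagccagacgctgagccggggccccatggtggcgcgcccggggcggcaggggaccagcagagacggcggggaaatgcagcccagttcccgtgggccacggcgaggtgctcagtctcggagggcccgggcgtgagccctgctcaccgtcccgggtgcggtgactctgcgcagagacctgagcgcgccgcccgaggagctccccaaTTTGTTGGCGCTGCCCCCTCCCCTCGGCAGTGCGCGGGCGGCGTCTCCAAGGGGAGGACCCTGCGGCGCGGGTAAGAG

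Among all 27025 genes with such a window, 3.05% held the NRF1 letters and 9.93% the ETS letters. These are more than the 18899 genes tested and so include genes below the filter. The share among tested genes alone was not computed. The NRF1 letters stood in 11 of the 65 nuclear genes of oxidative phosphorylation with a window (16.9%) and in 8 of 69 genes of the mitochondrial ribosome (11.6%). The ETS letters stood in 16 of the 65 (24.6%) and in 26 of the 69 (37.7%). *Romo1* held the ETS letters in 2 places and *Atox1* in 3. *Col4a1* and *Col4a2* are transcribed away from each other from the shared stretch. A match of letters is a description of the window, and no binding was measured.

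Nuclear genes of the respiratory chain were lower in KO BAT. Of the 36 complex I genes tested, 20 were lower and 0 higher at unadjusted p under 0.05, and 23 had all 3 KO libraries below the WT libraries. Of the 42 genes of complexes II to V, 21 were lower, 0 were higher, and 27 did not overlap. Together 41 of these 78 genes (52.6%) were lower at unadjusted p under 0.05, against 4.2% of all genes, and 50 (64.1%) lay wholly below, against 6.88%. The median log2 fold change was -0.29 for complex I and -0.26 for complexes II to V, against 0.01 over all genes. At the adjusted threshold, 1 gene of each list fell.

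*Ndufa1*, an accessory subunit of complex I encoded on chromosome X (37187588 to 37191163), was at 54.9, 65.4 and 63.8 CPM in the WT libraries and at 35.3, 36.3 and 32.9 CPM in the KO libraries. The groups did not overlap, and the gene fell by 0.82 ± 0.12 on the log2 scale (adjusted p = 0.0326). *Uqcr11*, a small subunit of complex III on chromosome 10 (80402997 to 80406830), was at 97.1, 107 and 102 CPM in WT and at 55.2, 65.5 and 65.7 CPM in KO. It fell by 0.72 ± 0.10 (adjusted p = 0.0326), with KO mouse 57 the lowest of all.

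The subunits were also described by role, with no test between roles. The 7 core subunits of complex I, which carry its electron transfer, had a median log2 fold change of -0.19, from -0.33 to -0.05, and 1 was lower at unadjusted p under 0.05. The 29 other subunits of complex I had a median of -0.31, and 19 were lower. Among them was *Ndufb11*, at 112, 113 and 112 CPM in WT and 73.3, 71.3 and 80.9 CPM in KO, a log2 fold change of -0.58 ± 0.10 (adjusted p = 0.0852).

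The median was -0.36 for the 12 subunits of complex IV, cytochrome c oxidase, of which 7 were lower at unadjusted p under 0.05. *Cox5b* had 324, 341 and 345 CPM in WT and 212, 233 and 247 CPM in KO (log2 fold change -0.55 ± 0.09, adjusted p = 0.094). The median was -0.25 for the 15 subunits of complex V, the ATP synthase (8 lower), -0.23 for the 9 of complex III (5 lower) and -0.18 for the 4 of complex II (1 lower). The catalytic subunit *Atp5b*, which held the most counts of the list, was at 5098, 5037 and 5127 CPM in WT and 4557, 4770 and 4322 CPM in KO (-0.16 ± 0.11, unadjusted p = 0.16).

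The 13 protein genes of the mitochondrial genome had values on both sides of 0. Their median log2 fold change was -0.00, from -0.29 to 0.19, and 0 of 13 had an unadjusted p under 0.05 in either direction by edgeR. *mt-Co1*, the catalytic subunit of complex IV, was at 97219, 91666 and 117224 CPM in WT and at 113426, 96352 and 77225 CPM in KO. The ranges overlapped, although KO mouse 69 lay below every WT library and WT mouse 89 above every KO library. The mitochondrial list moved with single libraries, being lowest in KO mouse 69 and highest in KO mouse 57. These are also the libraries with the highest and lowest TMM factor. As an unscaled share of counts, all genes of the mitochondrial genome made up 29.6% in KO mouse 69, close to 29.7% in WT mouse 56, and 33.6% in KO mouse 57.

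**Figure D2:**
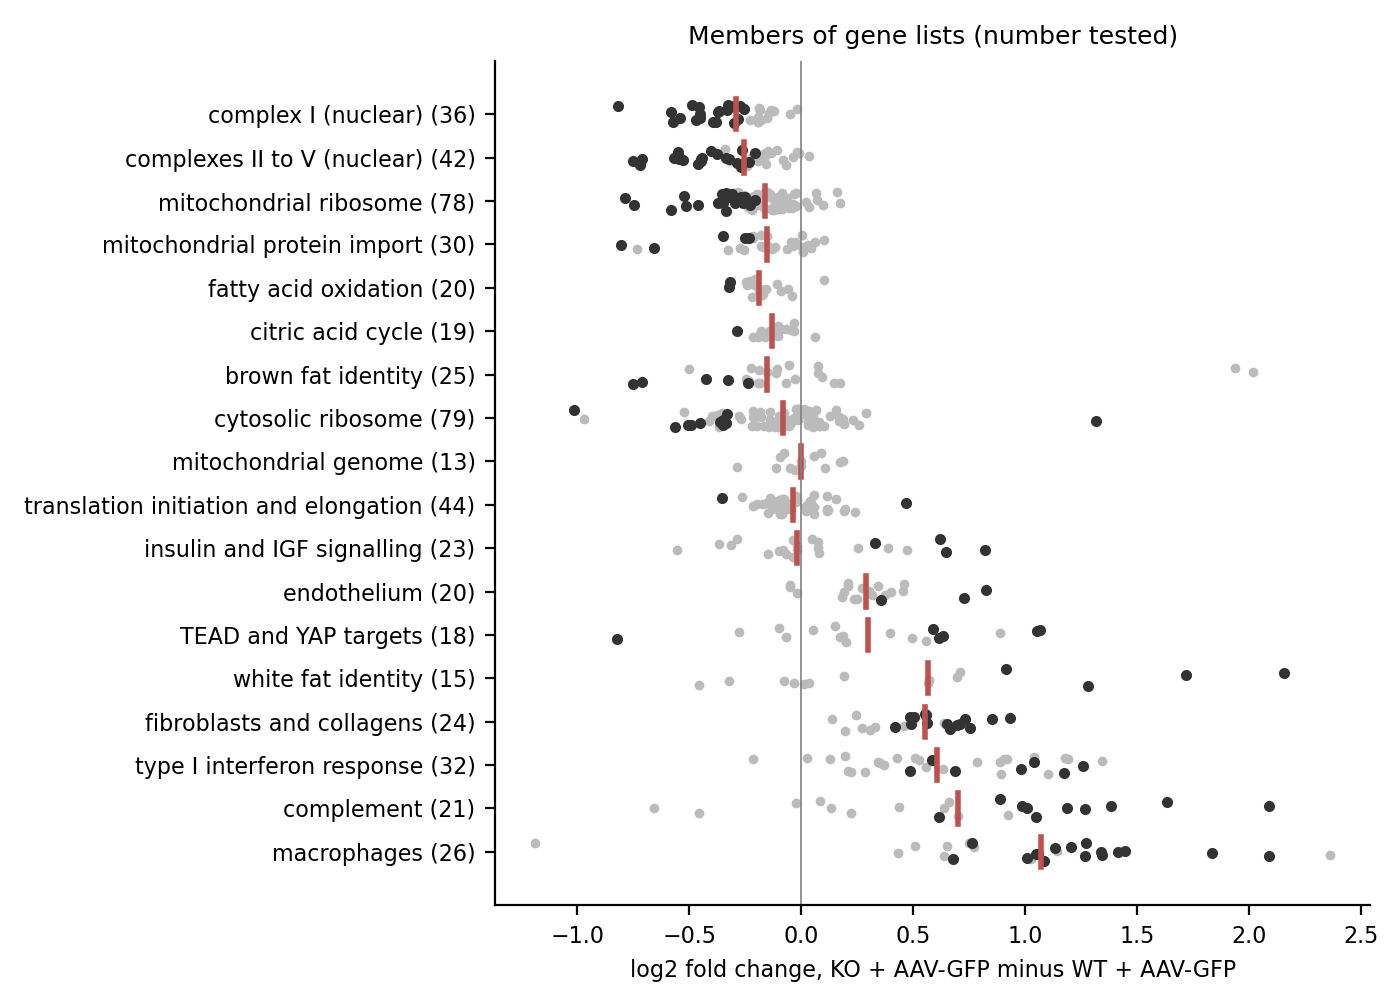
Log2 fold change of each tested member of 18 gene lists (horizontal axis, KO + AAV-GFP minus WT + AAV-GFP). Each point is a gene, dark where its unadjusted p was under 0.05, and the red bar is the list's median. The nuclear lists of the respiratory complexes lie left of 0, the mitochondrial genome around 0, and fibroblast, complement and macrophage lists right of 0.

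Some genes of the mitochondrial ribosome and of protein import into mitochondria were also lower. Of 78 mitochondrial ribosome genes, 19 (24.4%) were lower and 0 higher at unadjusted p under 0.05, with a median of -0.16. Leaving out WT mouse 65 gave 11 and leaving out WT mouse 89 gave 10. *Mrps24* fell from 24.3, 25.5 and 22.5 CPM in WT to 12.3, 14.0 and 15.6 CPM in KO (log2 fold change -0.79 ± 0.11, adjusted p = 0.0284). *Mrps36*, listed here by its name and also known as a component of the 2-oxoglutarate dehydrogenase complex, was at 35.6, 42.6 and 38.3 CPM in WT and at 24.1, 22.6 and 22.6 CPM in KO. It fell by 0.75 ± 0.09 (adjusted p = 0.0243), and no library of either group crossed into the other. The members with the most counts, such as *Mrpl12* and *Mrpl42*, overlapped between the groups.

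Of the 30 import genes, 5 (16.7%) were lower and 0 higher at unadjusted p under 0.05, and the median was -0.15. The count of 5 became 12 without WT mouse 56 and 8 without KO mouse 57, and 3 without KO mouse 64, WT mouse 65 or WT mouse 89. *Timm13*, a small chaperone of the intermembrane space, had 28.8, 28.8 and 26.7 CPM in WT and 15.0, 15.7 and 17.5 CPM in KO. It fell by 0.80 ± 0.11 (adjusted p = 0.0326). *Tomm7*, a small subunit of the translocase of the outer membrane, had 16.2, 17.1 and 17.1 CPM in WT and 10.1, 10.7 and 11.2 CPM in KO (-0.66 ± 0.11, adjusted p = 0.0686). The large chaperones *Hspa9* and *Hspd1* differed by 0.03 and 0.00 and overlapped.

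The remaining small genes that fell were *Romo1* and *Atox1*. *Romo1*, a small protein of the mitochondrial inner membrane known as a modulator of reactive oxygen species, had 22.8, 26.8 and 22.4 CPM in WT and 13.7, 14.6 and 14.8 CPM in KO. The log2 fold change was -0.74 ± 0.11 (adjusted p = 0.0354). *Atox1*, the cytosolic copper chaperone, had 18.4, 18.8 and 19.1 CPM in WT and 11.9, 12.7 and 11.3 CPM in KO (-0.65 ± 0.09, adjusted p = 0.0284). For both, each KO library lay below each WT library by a margin wider than the spread within a group.

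*Gm13340*, an unprocessed pseudogene on chromosome 2 (22588103 to 22589647), had the smallest p of all genes. It was at 146, 150 and 137 CPM in WT and at 58.2, 64.6 and 66.8 CPM in KO, and fell by 1.19 ± 0.13 (adjusted p = 0.0113). Pseudogenes with close copies elsewhere can take reads from them, and how the authors' counting treated such reads is not given in the sources used here, so this value is uncertain.

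The genes that fell were mostly short. The 9 that fell had longest transcripts of 419 to 7050 nt, with a median of 701 nt, and all except *Cpeb2* were at most 1545 nt. Across 12692 genes the log2 fold change correlated with length (Spearman coefficient 0.21) and with GC content (coefficient -0.18), a description over genes that share the same 6 libraries. The shortest quartile of these genes had a median of -0.08 and the longest 0.05. Among genes up to 1500 nt with a mean of at least 1 CPM, the 49 of oxidative phosphorylation had a median of -0.33 and 65.3% were lower at unadjusted p under 0.05. The other 1829 had a median of -0.09 and 12.8% were lower. Among genes over 1500 nt the median was -0.19 for the 28 of oxidative phosphorylation and 0.01 for the other 10786.

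With each library's trend in length and GC content removed, the medians were -0.22 for complex I and -0.20 for complexes II to V, and 19 genes of each list were lower at unadjusted p under 0.05. The adjusted calls fell to 2, *Cpeb2* and *Gm13340*. RNA integrity was not measured in the files, and its part in the difference was not tested.

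**Figure D3:**
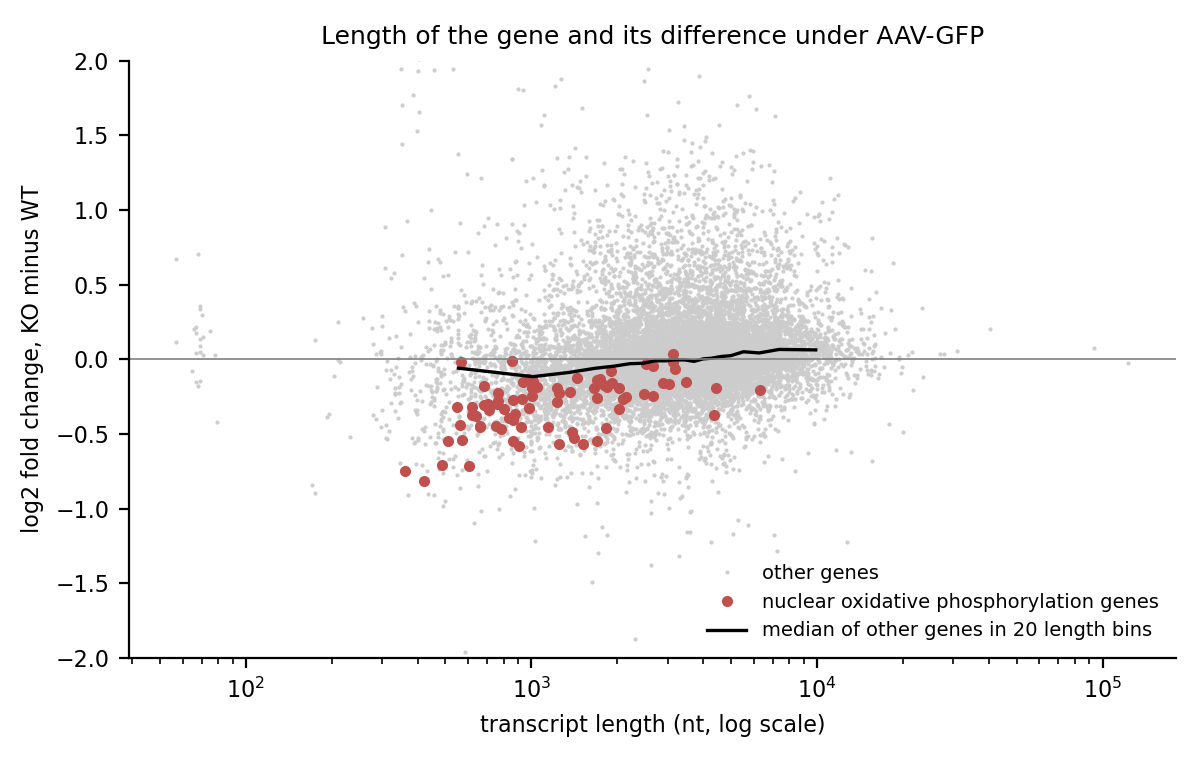
Log2 fold change of KO minus WT (vertical axis) against the length of the longest annotated transcript in nt (horizontal axis, log scale) for genes with a mean of at least 1 CPM. Grey points are other genes, the black line is their median in 20 bins of length, and red points are nuclear genes of oxidative phosphorylation, most of which lie below the line. Genes beyond 2 on either side of 0 are not drawn.

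In fuel metabolism more genes lay wholly below than passed the test. Of 20 genes of fatty acid oxidation, 2 were lower and 0 higher at unadjusted p under 0.05, with a median of -0.19, and 6 (30%) lay wholly below, against 6.88% of all genes. The count of 2 became 5 without KO mouse 57, 4 without WT mouse 56, 1 without WT mouse 89 and 0 without KO mouse 64 or WT mouse 65, and 5 with each library's trend in length and GC content removed. *Slc25a20*, the carnitine-acylcarnitine carrier, had 326, 431 and 386 CPM in WT and 306, 288 and 320 CPM in KO (-0.32 ± 0.12, unadjusted p = 0.0165). Of 19 citric acid cycle genes, 1 was lower, *Sdhb* (-0.29), and 6 (31.6%) lay wholly below, with a median of -0.13. *Pnpla2*, the triglyceride lipase that starts lipolysis, had a log2 fold change of -0.25 ± 0.10 and did not overlap (unadjusted p = 0.033).

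*Ucp1* overlapped between the groups, at 1184, 2658 and 1320 CPM in WT and 1947, 1576 and 2193 CPM in KO. Its log2 fold change was 0.15 ± 0.31 (adjusted p = 0.949), and its sign turned without WT mouse 56 or without WT mouse 89. *Prdm16*, the gene the other virus carries, was at 23.9, 40.2 and 35.8 CPM in WT and at 31.7, 34.5 and 31.7 CPM in KO (-0.03 ± 0.33, adjusted p = 0.993). Of 25 brown fat genes, 5 were lower and 0 higher at unadjusted p under 0.05, with a median of -0.15. Without WT mouse 65 the balance turned, with 3 lower and 4 higher. The 5 were *Cox8b* and *Cox7a1*, brown fat and muscle forms of complex IV subunits (-0.75 and -0.71), *Cidea*, a lipid droplet protein (-0.33), the transcription factor *Ebf2* (-0.24) and the potassium channel *Kcnk3* (-0.42). *Cox8b* was at 118, 156 and 120 CPM in WT and at 65.6, 71.6 and 97.0 CPM in KO.

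The lipogenic genes as a list were lowest in KO mouse 69. *Fasn*, fatty acid synthase, was at 21736, 15603 and 14030 CPM in WT and at 21986, 24453 and 1842 CPM in KO. *Acly*, which supplies its acetyl-CoA, was at 2754, 1354 and 1084 CPM in WT and at 3311, 3672 and 268 CPM in KO. The list's median log2 fold change was -0.10 with mouse 69 and 0.22 without it, when 4 of 21 genes were higher at unadjusted p under 0.05 in place of 2. Of the 21, 2 lay wholly above WT with all 3 KO libraries. With only KO mice 57 and 64, 11 lay wholly above, against 11.1% of all genes.

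Of the 15 white fat genes tested, 4 were higher and 0 lower at unadjusted p under 0.05, and 5 lay wholly above. *Lep*, the hormone leptin, was at 34.9, 21.3 and 30.0 CPM in WT and at 78.1, 78.4 and 128 CPM in KO (1.72 ± 0.72, unadjusted p = 0.035). *Mest*, an imprinted gene of expanding adipocytes, was at 1.24, 0.217 and 0.883 CPM in WT and at 5.18, 2.74 and 2.51 CPM in KO (2.16 ± 0.58, unadjusted p = 0.0028). *Adipoq* overlapped (0.01 ± 0.18). The list's median was 0.57. Leaving out any of the 6 libraries except KO mouse 57 moved it by more than the spread between mice. It became 0.12 without KO mouse 69, 0.20 without WT mouse 65, 0.24 without KO mouse 64 and 0.26 without WT mouse 89. It was 0.37 without WT mouse 56, 0.65 without KO mouse 57 and 0.38 with only the 6 libraries fitted.

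Genes of the cytosolic ribosome, on which the nuclear subunits are made, moved with single libraries. Of 79 genes 10 (12.7%) were lower and 1 higher at unadjusted p under 0.05, against 4.2% and 4.98% of all genes, with a median of -0.08. Without KO mouse 69 the median was -0.22, 22 were lower, and 27 lay wholly below, against 12.1% of all genes with those libraries. Without KO mouse 64 the median was -0.01 and 5 were lower, and 6 were lower without WT mouse 65. Of 44 initiation and elongation factors, 1 was lower and 1 higher. Within the CPEB family, *Cpeb4* was at 44.1, 52.3 and 37.8 CPM in WT and at 53.2, 59.1 and 70.9 CPM in KO, a log2 fold change of 0.45 ± 0.14 (unadjusted p = 0.0063, adjusted p = 0.35). The groups did not overlap. *Cpeb1* differed by -0.23 and *Cpeb3* by 0.22, with unadjusted p of 0.288 and 0.0653. Poly(A) factors such as *Pabpc1* (-0.08) and *Cnot1* (0.10) overlapped.

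*Map1b*, a microtubule-associated protein best known from neurons, was the gene that rose. It lies on chromosome 13 (99421446 to 99516540) and was at 6.65, 4.97 and 5.42 CPM in WT and at 11.6, 12.6 and 12.3 CPM in KO. The lowest KO library was well above the highest WT library, with a log2 fold change of 1.10 ± 0.16 (adjusted p = 0.0326). Of the 26 microtubule-associated and cytoskeletal genes, 6 were higher and 2 lower at unadjusted p under 0.05, with a median of 0.24. Without KO mouse 69 the list had 2 higher and 3 lower, 2 of each without WT mouse 65, and with the length and GC trend removed 3 higher and 2 lower. *Mapt*, the tau protein, was lower, at 111, 81.1 and 101 CPM in WT and 64.5, 76.1 and 79.2 CPM in KO (-0.42 ± 0.14). Of 23 markers of Schwann cells and nerve, 1 was higher and 2 were lower, with a median of -0.06.

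Genes of the extracellular matrix were higher in KO BAT. Of 24 fibroblast and collagen genes, 15 (62.5%) were higher and 0 lower at unadjusted p under 0.05, against 4.98% of all genes, and 10 (41.7%) lay wholly above, against 6.51%. The median was 0.56, and every member was positive, from 0.14 to 0.93. None passed the adjusted threshold in edgeR. The count of 15 became 6 without KO mouse 69 and 7 without WT mouse 65, and the median without mouse 69 was 0.43.

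*Col4a1*, *Col4a2* and *Nid1*, which encode proteins of the basement membrane, did not overlap between the groups. *Col4a1*, the alpha-1 chain of type IV collagen, was at 298, 277 and 281 CPM in WT and at 430, 435 and 477 CPM in KO (0.65 ± 0.11, adjusted p = 0.0854). *Col4a2*, its partner chain, whose window is printed beside it above, was at 283, 261 and 241 CPM in WT and at 345, 368 and 400 CPM in KO (0.50 ± 0.12, unadjusted p = 0.0014). *Nid1*, nidogen, which links type IV collagen to laminin, was at 57.2, 36.6 and 51.3 CPM in WT and at 93.1, 97.9 and 104 CPM in KO (1.02 ± 0.19, adjusted p = 0.135). *Sparc*, a collagen-binding matrix protein, had a difference of 0.42 ± 0.12. *Col3a1*, a fibrillar collagen, overlapped (0.49 ± 0.21).

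Other genes at the upper end had varied roles. *Sulf1*, which removes sulfate from heparan sulfate chains, was at 3.84, 3.97 and 4.51 CPM in WT and at 7.05, 7.27 and 6.52 CPM in KO (0.76 ± 0.14, adjusted p = 0.131). *Sema3c*, a secreted semaphorin, was at 1.46, 1.06 and 1.63 CPM in WT and at 4.31, 3.44 and 3.08 CPM in KO (1.38 ± 0.25, adjusted p = 0.131). *Kalrn*, an exchange factor for small GTPases, differed by 1.05 ± 0.19, *Il13ra1*, a receptor chain for interleukin-13, by 1.11 ± 0.21, and *Cyp1b1*, a cytochrome P450, by 1.27 ± 0.25. *Dpep1*, a membrane dipeptidase, differed by 0.85 ± 0.15 and *Ly6c1*, a surface protein of endothelial cells and monocytes, by 0.60 ± 0.12. For all of these the KO libraries lay above the WT libraries, and the adjusted p was 0.131 to 0.168.

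Of 18 genes of TEAD and YAP signalling, 5 were higher and 1 lower at unadjusted p under 0.05, and the 5 became 3 without KO mouse 64, KO mouse 69 or WT mouse 65 and 8 without KO mouse 57. *Tead1*, a DNA-binding partner of YAP, was at 35.6, 43.0 and 35.7 CPM in WT and at 54.9, 57.8 and 59.4 CPM in KO (0.59 ± 0.15). *Vgll4*, a cofactor that competes with YAP for TEAD, was lower, at 68.0, 116 and 92.4 CPM in WT and 44.5, 50.5 and 61.1 CPM in KO (-0.82 ± 0.20). Neither passed the adjusted threshold (adjusted p = 0.29 and 0.23). Of 23 insulin and IGF signalling genes, 4 were higher and 0 lower, and 2 were higher without KO mouse 57, KO mouse 64 or WT mouse 56. The 4 included *Igfbp4* (0.62 ± 0.14) and *Grb10* (0.65 ± 0.17), a binding protein of insulin-like growth factors and an adaptor of the insulin receptor.

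*Acot1* and *Pla2g4b* were among the genes without overlap whose fold change at the lower end was largest. *Acot1*, a cytosolic thioesterase of fatty acyl-CoA, was at 5.06, 13.0 and 13.3 CPM in WT and at 4.44, 4.91 and 2.71 CPM in KO (-1.38 ± 0.62). The phospholipase gene *Pla2g4b* differed by -1.23 ± 0.43. The lowest WT value of *Acot1* hardly cleared the highest of KO, and the adjusted p was 0.539 for *Acot1* and 0.416 for *Pla2g4b*.

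Macrophage genes were higher in the KO libraries, most of all in KO mouse 69 and least in WT mouse 56. Of 26 tested, 16 (61.5%) were higher and 0 lower at unadjusted p under 0.05, 11 (42.3%) lay wholly above, and the median was 1.07. Leaving out KO mouse 69 gave 7 and leaving out WT mouse 56 gave 10, and the median without mouse 69 was 0.50. *Mrc1*, the mannose receptor of resident macrophages, was at 7.13, 9.77 and 9.98 CPM in WT and at 14.3, 14.3 and 28.3 CPM in KO (1.08 ± 0.24, adjusted p = 0.18). *Csf1r*, the receptor for the macrophage growth factor, was at 7.20, 11.1 and 11.6 CPM in WT and at 13.8, 15.0 and 33.5 CPM in KO (1.06 ± 0.30).

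Complement genes were also higher, and macrophages make part of this list. Of 21 genes 10 (47.6%) were higher and 0 lower at unadjusted p under 0.05, with a median of 0.70, which was 0.27 without mouse 69. *C5ar1*, a receptor for a complement fragment, was at 1.15, 1.05 and 1.33 CPM in WT and at 2.38, 2.36 and 6.22 CPM in KO (1.64 ± 0.35, adjusted p = 0.18). *C3*, the central component, pointed the other way and overlapped, at 306, 712 and 513 CPM in WT and at 378, 281 and 313 CPM in KO (-0.66 ± 0.40).

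Interferon and lymphocyte genes followed single mice. Of 32 type I interferon response genes, 7 were higher and 0 lower at unadjusted p under 0.05 with a median of 0.61. Without KO mouse 69 the median was 0.13 and 1 was higher, without KO mouse 57 the count was 11, without KO mouse 64 it was 16, and without WT mouse 56 it was 3. Of 35 T cell and cytotoxic genes, 0 differed at unadjusted p under 0.05 by edgeR. *Cd3e*, a chain of the T cell receptor complex, ran from 0.457 CPM in WT mouse 56 to 3.93 CPM in KO mouse 69. The joining chain *Jchain* of secreted antibodies was at 4.38, 16.7 and 27.8 CPM in WT and at 21.6, 68.4 and 160 CPM in KO, and 3 of 24 B and plasma cell genes were higher, with a median of 1.12 that was 0.37 without mouse 69. The count of 3 became 0 without KO mouse 69, 1 without WT mouse 56 and 8 without KO mouse 57.

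The largest differences at the upper end among genes without overlap were in variable segments of antibody genes. *Igkv4-72* had 0, 0.203 and 0 CPM in WT and 0.462, 2.04 and 3.72 CPM in KO. *Ighv1-78* and *Ighv5-17* also lay above in each KO library, reaching 4.32 and 6.63 CPM in mouse 69 and at most 0.289 and 0.472 CPM in WT. Such segments have near-identical relatives between which reads can be split, so single segments are uncertain, and their adjusted p was 0.388 to 0.499.

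Skeletal muscle transcripts were a property of KO mouse 57. *Myh4*, the myosin heavy chain of fast fibres, was at 31.2 CPM in that library and at 0 in the other 5. *Acta1*, skeletal actin, was at 13.1 CPM there and between 0.0717 and 0.458 CPM elsewhere. The summed level of the 33 muscle genes tested was 97.9 to 107 CPM in WT, 226 CPM in KO mouse 57 and 90.3 and 74.2 CPM in KO mice 64 and 69. Of these genes 11 were higher at unadjusted p under 0.05 and 2 lay wholly above, *Neb* and *Pygm*. Without mouse 57 the number higher was 0 by edgeR (1 was lower) and the median 0.00, in place of 2.77. The median of 2.77 rests on fits against libraries at 0 and has no meaning as a size.

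Vessel markers moved with single libraries. Of 20 endothelial genes 3 were higher and 0 lower, with a median of 0.29, and the list was lowest in KO mouse 57, without which 14 were higher. It had 7 higher without WT mouse 56, 2 without KO mouse 69 and 1 without KO mouse 64 or WT mouse 65. Of 17 genes of smooth muscle and pericytes 3 were higher, with a median of 0.22. This count became 8 without KO mouse 57, when the median was 0.36, and 1 without KO mouse 64, KO mouse 69 or WT mouse 65. Myogenic regulators (5 tested), lymph node stroma (7) and red blood cells (8) had 0 genes at unadjusted p under 0.05 by edgeR.

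The summed macrophage level was 99.1 to 213 CPM in WT and 254, 240 and 645 CPM in KO, and the summed fibroblast level 1310 to 1586 CPM in WT and 2008, 1966 and 2279 CPM in KO. For both sums, the KO libraries lay above the WT libraries. The mean log2 CPM of the macrophage list overlapped, at 1.79 in WT mouse 89 and 1.76 in KO mouse 64. The part of macrophages and fibroblasts in the lower share of respiratory chain counts was not tested. Without KO mouse 69, the library richest in immune transcripts, the respiratory chain medians were -0.27 for complex I and -0.27 for complexes II to V. In both sums KO mice 57 and 64 still lay above every WT library, so these medians do not answer that question.

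**Figure D4:**
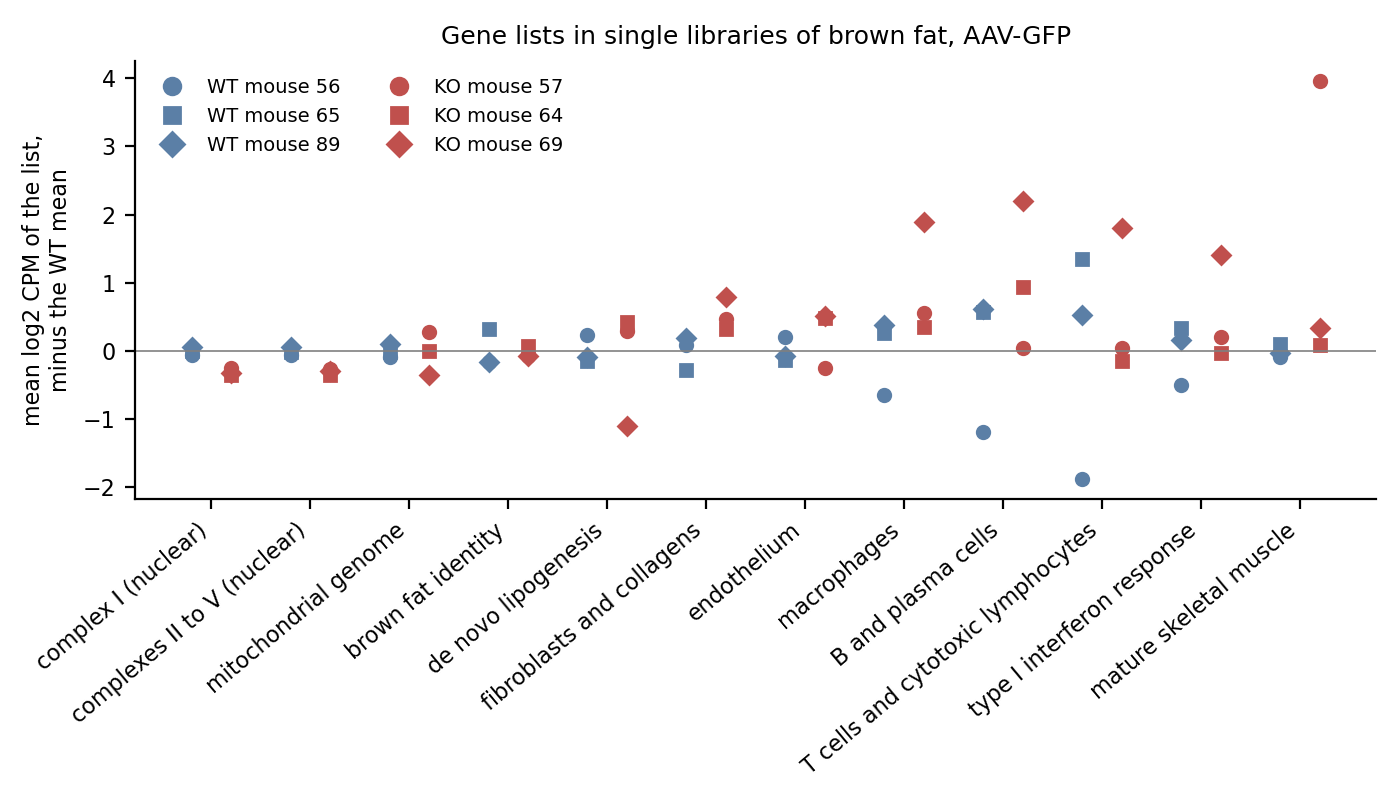
Level of 12 gene lists in each library, as the mean log2 CPM over the list minus the mean of the 3 WT libraries (vertical axis). Blue points are WT and red points KO, with a symbol for each mouse. The 2 nuclear respiratory chain lists and the fibroblast list hold all KO points on the same side of the WT points, whereas the immune lists are led by KO mouse 69 and the muscle list by KO mouse 57.

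The same genes were then set beside 2 other comparisons of KO with WT that share no library with this one. Under AAV-PRDM16, 3 KO mice against 3 WT mice in the same fit, all 10 genes had the same direction, and *Cpeb2* alone passed the adjusted threshold (-1.34, adjusted p = 0.0108). Excluding *Cpeb2*, the 8 others that fell had log2 fold changes of -0.54 to -0.08 there. *Gm13340* differed most between the viruses, with -0.08 under AAV-PRDM16 and an adjusted p of 0.831. *Col4a1* rose under AAV-PRDM16, by 0.74 (adjusted p = 0.0404). The median was -0.28 for complex I and -0.24 for complexes II to V, and 43 of the 78 genes lay wholly below, against 11.2% of all genes there.

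Whether the genotype difference itself depended on the virus was tested as the interaction. With edgeR 0 genes (0%) passed the adjusted threshold, and 603 of the 18899 tested had an unadjusted p under 0.05. DESeq2 called 1 and limma-voom 0. *Gm13340* had the smallest of the p-values of the 10 genes, 3.77e-05, with an adjusted p of 0.712. For *Map1b* the genotype difference was larger by 0.62 under AAV-GFP (unadjusted p = 0.0158), for *Ndufa1* it was more negative by 0.42 (unadjusted p = 0.026), and neither passed the adjustment. The 10 genes were picked by their difference under AAV-GFP, which is also a part of the interaction. That choice alone favours a larger difference under AAV-GFP, so their unadjusted p-values do not show a dependence on the virus.

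In the untreated mice, 5 KO against 5 WT in a separate fit, the same nuclear genes had positive medians, 0.51 for complex I and 0.50 for complexes II to V. Y-linked transcripts were near 0 in 4 of these KO and 2 of these WT libraries. Of the other 4, 1 WT and 1 KO library had 116 and 77.1 CPM of the Y-linked genes with 14.0 and 1.65 CPM of *Xist*, and 2 WT libraries had 192.8 and 190.8 CPM with at most 0.0876 CPM of *Xist*. With only the 4 libraries that held Y-linked transcripts, 3 WT and 1 KO, the medians were 0.16 and 0.16, and with only the 6 others, 2 WT and 4 KO, they were 0.23 and 0.15. With presence of these transcripts as a term in the fit of all 10 they were 0.16 and 0.14.

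Of the 10 genes, 3 had the same direction in all untreated mice as under AAV-GFP, *Cpeb2* (-0.99), *Map1b* (0.31) and *Gm13340* (-0.04). The number was 2 in the libraries with Y-linked transcripts, 4 in those without and 3 with the term. *Gm13340* was 0.06 in the libraries with these transcripts, and *Ndufa1* was -0.29 in those without. In the fit of all untreated mice 0 of the 10 genes passed the adjusted threshold by edgeR. There 1, *Cpeb2*, had an unadjusted p under 0.05, and the smallest adjusted p of the 10 was 0.305. *Atox1* had 0.95 and *Mrps24* 0.91, which became 0.58 and 0.50 with the term. *Cpeb2* was -1.01 with the term and -0.97 in the libraries without Y-linked transcripts. In each of these fits 0 genes passed the adjusted threshold. The 2 experiments differ in age range and injection and were counted in separate tables. The paper states that the untreated mice had no food for some hours before collection, and names no such step for the mice given virus. The difference between the experiments was not tested. *Col4a1* was 0.48 in all untreated mice, 0.89 in the libraries with Y-linked transcripts and 0.67 in those without. *Ly6c1* was 0.61, 1.59 and -0.06 in the same order.

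**Figure D5:**
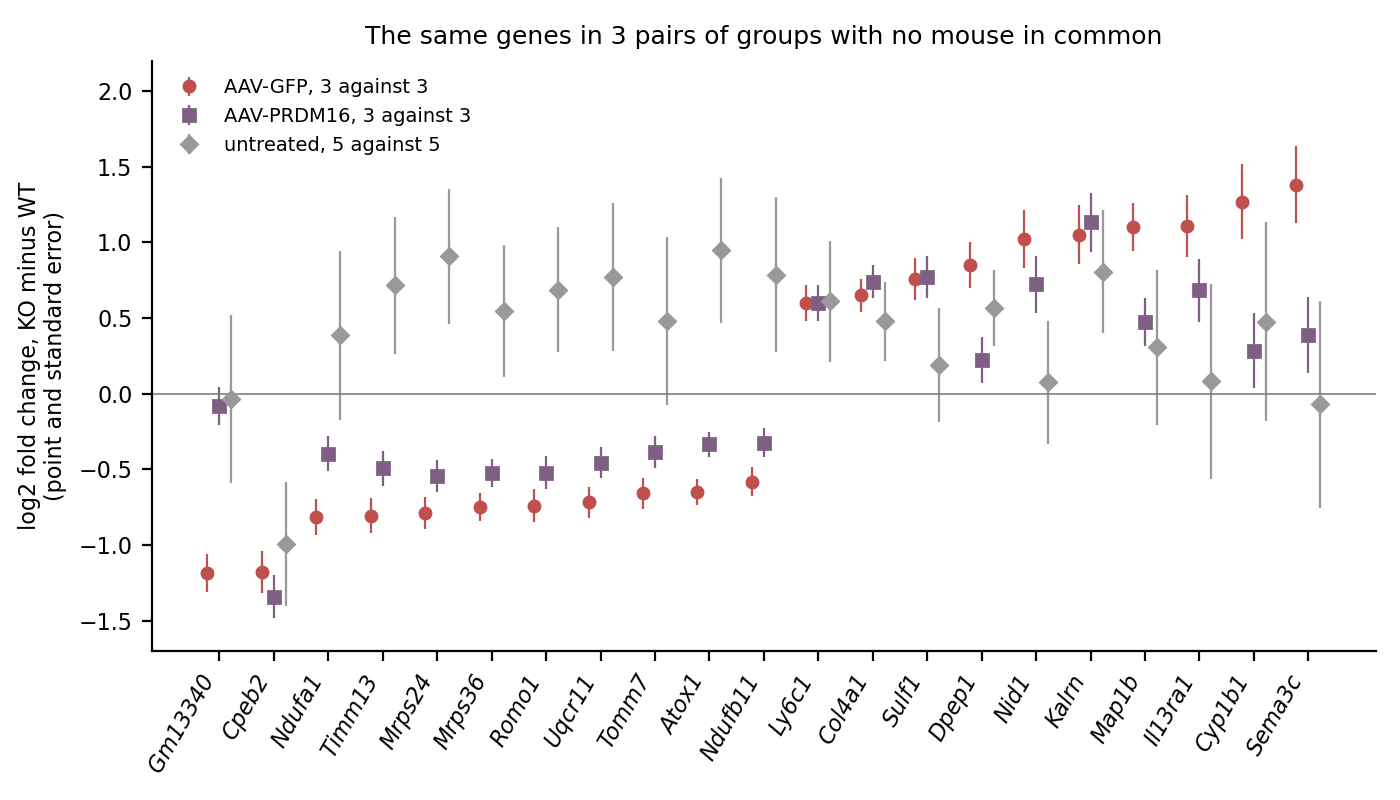
Log2 fold change of KO minus WT (vertical axis, point with its standard error) for 21 genes under AAV-GFP (red), under AAV-PRDM16 (purple) and in untreated mice (grey). The short genes from *Ndufa1* to *Ndufb11* lie below 0 under both viruses and above 0 in the fit of all untreated mice, where the standard errors are wider and 6 of 10 libraries lacked Y-linked transcripts.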

How the data were processed

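BAT RNA was sequenced as mRNA libraries, 1 per mouse, with a SureSelect XT HS2 kit. Per the submitters' processing notes, bcl2fastq 2.20, Trimmomatic 0.36, HISAT2 and the build GRCm38.p6 were used. The counting tool, annotation and strand setting are not given in the sources used here, and antisense, overlapping or near-identical genes are therefore uncertain. The authors deposited whole-number counts per Ensembl gene, without normalization, for 55487 genes.

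Libraries were grouped by the sample labels. In R 4.3.3, genes were kept by filterByExpr of edgeR 4.0.16, scaled by TMM and tested (glmQLFit and glmQLFTest, two-sided) on the 12 libraries of the AAV experiment, whose 4 groups share 1 estimate of the spread. The untreated mice had their own fit of 10 libraries. This was repeated with the presence of Y-linked transcripts (at least 10 CPM summed over *Ddx3y*, *Eif2s3y*, *Kdm5d* and *Uty*) as a term and within the libraries with and without them, added after the data were seen. A lone library in a group is assumed to vary like the others. The script was tested on simulated data. Each library is a mouse, and p-values measure the spread between 3 mice a group. Libraries held 74420956 to 143005309 counts, and 3 counts, the limit that a count of 0 allows, came to 0.0203 to 0.0447 CPM. Such limits cover counting error only.

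The comparison and the 43 gene lists, written from general knowledge, were chosen with earlier results of these data known, and the split of the respiratory chain by subunit role was made after the values were seen. The genes named are *Cpeb2*, *Prdm16* and *Ucp1*, all at an adjusted p under 0.05, and the 10 with the smallest p and 3 with the largest fold change in each direction among genes of at least 1 CPM without overlap between groups and without a provisional name. Of each list, up to 4 of the most abundant members or members at unadjusted p under 0.05 are named. *Cpeb1*, *Cpeb3*, *Cd3e* and *Csf1r* were added. Some genes that the rule takes are not reported here. Symbols, positions, length and GC content of the longest transcript came from GENCODE M21 (GRCm38).

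The results were recomputed with DESeq2 1.42.0 and with limma-voom and sample quality weights (limma 3.58.1), after RLE in place of TMM scaling, with every gene kept or those of at least 0.5 CPM in any library, and with the replicate number as a block. They were also recomputed with the GC and length trend taken out by splines of 4 degrees of freedom, without each of the 12 libraries, on the 6 libraries compared, and at an FDR of 0.1 or at 0.5 with 2-fold. Counts of list members without single libraries were added after the data were seen.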

Additional observations from a re-analysis of the deposited data

How the results depend on the processing

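The 10 genes at an adjusted p under 0.05 in edgeR remained 10 with RLE scaling, without a filter and with the 0.5 CPM minimum, and all 10 stayed among the calls. DESeq2 called 243 (118 of them lower), which included all 10, and limma-voom called 12, which included 9 of the 10. An FDR of 0.1 gave 16, and an FDR of 0.5 with at least 2-fold gave 341 (270 higher, 71 lower). Removal of the GC and length trend left 2. The fit of only the 6 libraries left 0, where the spread is estimated from fewer mice and without the AAV-PRDM16 groups. The spread was unequal between groups. On unscaled counts, the median chi-square per gene was 31.3 and 25.5 for KO mouse 69 against KO mice 57 and 64. It was 8.15 between mice 57 and 64, 9.06 to 10.5 within WT + AAV-GFP and 5.255 to 9.45 within the AAV-PRDM16 groups. The effect of sharing 1 estimate was not tested. The fits without a single library gave 0 to 8. Besides the libraries compared, WT + AAV-PRDM16 mice 63 and 80 and KO + AAV-PRDM16 mouse 59 lowered the count, to 3, 2 and 2. All 10 genes kept their direction in every fit. Genes at unadjusted p under 0.05 numbered 1296 to 2280 without a single library. The interaction gave 1 gene with DESeq2 and 0 to 1 without a single library.

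*Cpeb2* kept its direction in every fit. Without a single library it ran from -1.28 to -1.08, and the adjusted p missed 0.05 without KO mouse 57 or 64 or WT mouse 56 or 65. With only the 6 libraries it was -1.18 (adjusted p = 0.406). Of 609 values of the 29 named genes under alternatives, 5 changed sign, all of *Prdm16* or *Ucp1*, which overlapped between groups. The call was lost in 118 values, all of them of the 10 genes called in the main fit. The other named genes had no call to lose, so the 118 are not a share of the 609. *Prdm16* was 0.020 with limma-voom and -0.22 to 0.13 without a single library, and *Ucp1* -0.063 to 0.60.

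With the replicate number as a block 1 gene was called, and 1 with the block and the GC and length trend removed together, and *Cpeb2* was -1.17 (adjusted p = 0.0643) with the block. The labels do not say what the number marks, and the deviations of same-numbered mice correlated at 0.14, -0.14 and 0.08 over 12705 genes. With 3 mice a group, such correlations cannot show whether same-numbered mice shared a litter, cage or extraction day. KO mouse 64 correlated best with WT mouse 56 (0.30), not with its own number.

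Of the 882 list medians under alternatives, 851 moved by less than the spread between mice and 31 by more, and the causes were not tested. The respiratory chain lists were among the 31. Complex I moved with the GC and length trend removed (to -0.22) and with this and the block together. Complexes II to V moved with limma-voom. The white fat list came up most often.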

Other observations

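Other gene lists gave few differences at unadjusted p under 0.05 under AAV-GFP. Of 19 clock genes and of 22 interferon-gamma GTPases, 0 differed by edgeR, with medians of -0.11 and 0.13. Of 46 proteasome genes 1 was lower, and of 26 genes of adrenergic and cAMP signalling 2 were lower, *Adcy6*, an adenylyl cyclase (-0.28 ± 0.09), and *Pde4a*, a phosphodiesterase (-0.30 ± 0.11). Among 23 antioxidant genes, the small cytosolic enzymes *Sod1* and *Txn1* were lower. *Sod1*, superoxide dismutase, was at 162, 162 and 172 CPM in WT and at 127, 130 and 117 CPM in KO (-0.41 ± 0.11, adjusted p = 0.29), and *Txn1*, thioredoxin, was at 29.8, 27.0 and 29.7 CPM in WT and at 23.8, 20.3 and 18.8 CPM in KO (-0.46 ± 0.12, adjusted p = 0.27). *Hmox1*, heme oxygenase, was higher at 7.94, 8.20 and 14.6 CPM in KO against 4.80, 7.22 and 5.81 CPM in WT (0.79 ± 0.34, adjusted p = 0.52).

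Of 14 genes of MHC class II presentation 4 were higher at unadjusted p under 0.05, with a median of 0.75 that was 0.14 without KO mouse 69. *Cd74*, the invariant chain, was at 44.6, 122 and 115 CPM in WT and at 101, 108 and 301 CPM in KO, so that the groups overlapped. WT mouse 56 was the lowest of the 6 libraries and KO mouse 69 the highest, as for macrophage genes. Of 20 MHC class I genes 1 was higher, and of 29 chemokines 3 were higher. These counts rested on single libraries. Without KO mouse 69 they were 0 for class II, 0 for class I and 0 for chemokines by edgeR, and without KO mouse 64 they were 7, 5 and 6. Of 25 proliferation genes 1 was higher, with a median of 0.38 under AAV-GFP and 0.87 under AAV-PRDM16. Of 15 genes of PRDM16 and its partners, 2 were lower, *Cebpb*, a transcription factor of adipocyte differentiation, and *Ebf2*, and the former overlapped between the groups. Of 22 genes of lipolysis and the lipid droplet 2 were lower, of 19 immediate early genes 0 differed by edgeR, and of 18 genes of the integrated stress response 2 were higher and 1 was lower.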
